A study of Rattus norvegicus with 6 samples.

Results

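The genes described here build, release, clear and answer the inhibitory transmitter GABA, or set the chloride gradient that its main receptor uses. The list of 30 genes was drawn up by function: subunits of the GABA-A, GABA-rho and GABA-B receptors, enzymes, transporters, chloride cotransporters, the scaffold gephyrin and the GABARAP proteins. A gene was measured through every probe set, a group of short probes for 1 transcript, that the array annotation assigns to that gene symbol alone. This gave 46 probe sets for 28 of the 30 genes, of 20832 probe sets with 1 symbol and 31099 on the array. Slc6a12, the betaine and GABA transporter, had none with 1 symbol, and the probe sets of Gabarapl2 carry 2 symbols, so both are not analysed here. The rule used no measured value, but the members were chosen with earlier results of these data known.

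The samples were organotypic cultures, slices of Wistar rat hippocampus kept alive by the roller tube method, and all of them came from wild-type pups of postnatal day 4 by the labels and day 4 to 5 by the methods. The 3 control samples were untreated, and the 3 gabazine samples received 20 µM of gabazine, an antagonist of the GABA-A receptor, for 90 min. Each replica drew its cultures from 2 littermates and split them between control and gabazine, so arrays that share a replica number form a pair here. The question was which transcripts differ once GABA-A transmission is blocked, here asked of the inhibitory system itself.

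GABA is made from glutamate by the 2 glutamate decarboxylases, packed into vesicles by a vesicular transporter and taken up again by plasma membrane transporters of neurons, glia and meningeal cells. GABA-A receptors are pentameric chloride channels whose subunits set where the receptor sits and how it opens, while GABA-B receptors are pairs of Gabbr1 and Gabbr2 that act through G proteins. In the immature hippocampus chloride is accumulated by Slc12a2 (NKCC1) and later extruded by Slc12a5 (KCC2), so that the action of GABA shifts with age from depolarizing to inhibitory.

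Values are log2 intensities, and a log2 ratio is gabazine minus control within a pair. The medians of the control arrays were 8.63, 7.90 and 8.71 in pairs 1, 2 and 3, so array medians were subtracted for the levels of the untreated cultures, and every other level is given as deposited. Over the whole array the log2 ratios spread more in pair 1, with an SD of 0.475, against 0.247 and 0.230 in pairs 2 and 3. The 3 rat control transcripts of the array that carry a 5′ and a 3′ probe set had a 5′ ratio above the 3′ ratio by a median of 0.50 in pair 1, and by -0.02 and -0.08 in pairs 2 and 3. Many probe sets have identical values in control and gabazine of a pair, which gives a log2 ratio of 0.00. How these identical values arose is not given, and a standard error or interval that includes them is not read as precision. The 11 measured markers of excitatory neurons, which the hippocampus should hold, had mean levels of 10.55, 9.50 and 10.48 in the control arrays, above the array medians. The table has no detection measure, and brightness depends on the probes, so a level is not compared between genes as an abundance. In whole cultures, fewer cells of a type and less RNA per cell cannot be told apart.

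In the untreated cultures, 15 of the 28 genes lay above the array median on their brightest probe set in all 3 control arrays, and 11 lay below it in all 3. Gad1, the decarboxylase that makes most of the GABA of the cell body, lay 4.72 ± 0.04 (SD, n = 3) above the array median, and Slc12a2, the chloride importer, 4.61 ± 0.05 (SD, n = 3). The chloride exporter Slc12a5 lay 3.83 ± 0.49 (SD, n = 3) above it, with 12.99, 11.28 and 12.45 in the 3 control arrays before the median was subtracted. Of the GABA-A subunits, Gabrb1 lay 4.41 ± 0.07 and Gabra5, the subunit of extrasynaptic receptors on hippocampal pyramidal cells, 4.21 ± 0.19 above the median (SD, n = 3). Gabra6, which is known from cerebellar granule cells, had -2.83 ± 0.37, and Gabrp, known from reproductive tissue, had -4.04 ± 0.15 (SD, n = 3). The GABA-rho subunits, best known from retina, had -2.81 ± 0.30 for Gabrr1 and -0.84 ± 0.40 for Gabrr2 (SD, n = 3). Also below the median were Gad2 at -1.33 ± 0.62, Gabra4 at -1.28 ± 0.19, Slc6a11 at -2.63 ± 0.25 and Gabra3 at -2.75 ± 0.12 (SD, n = 3). The dim probe set of Gad1 had -2.10 ± 0.22 (SD, n = 3), so a level is not read as presence or absence of a transcript. The widest spread between the control arrays was that of Slc6a13 (GAT2), a transporter of meningeal cells, with -0.75 ± 1.39 (SD, n = 3).

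**Figure D1:**
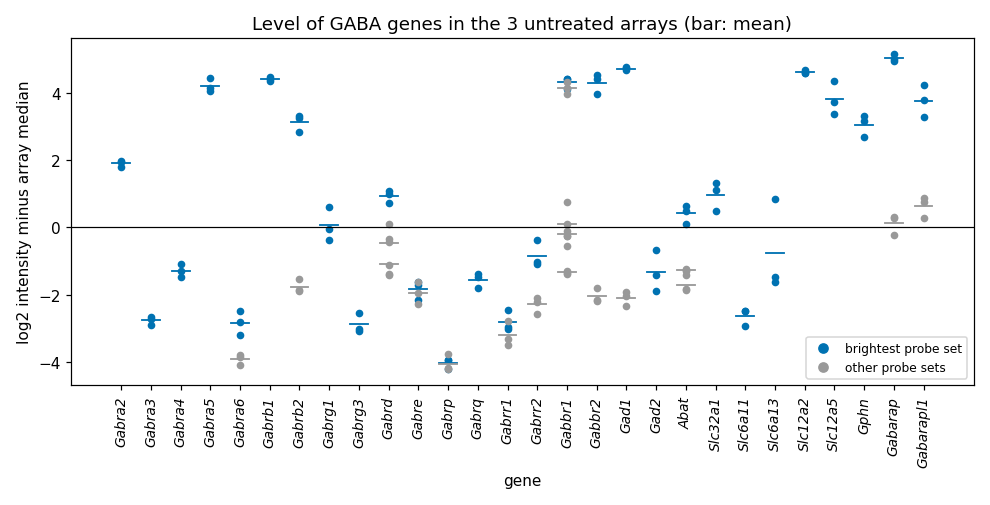
Log2 intensity minus the array median in the 3 untreated arrays (vertical axis) for each GABA gene (horizontal axis), with 1 point per array, a bar at the mean, blue for the brightest probe set and grey for the others. Gad1, Slc12a2, Gabrb1 and Gabarap stand between 4.41 and 5.04 on average, and the 3 points of Slc6a13 are the most spread.

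After gabazine, none of the GABA genes passed the test, as no probe set of the array did. On the brightest probe set, the mean log2 ratio of 20 of the 28 genes (71.4%) was smaller than 0.2 in size. That share was below the 81.2% of all 14218 genes. The median of the 28 genes was 0.04, with 0.04, 0.00 and 0.00 in pairs 1, 2 and 3, and the median of all genes was -0.005, with -0.01, 0.00 and 0.00 in the pairs. Gabrd, the delta subunit of extrasynaptic receptors, was the gene of the 28 higher in all 3 pairs on its brightest probe set. Gabrb2, a beta subunit of synaptic receptors, was the gene lower in all 3. Of all 14218 genes, 1107 were higher and 1537 lower in all 3 pairs. Among the 28, the highest mean was that of Slc6a13 at 0.79 (standard error 0.40).

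The test was limma's, blocked on the pair, with the adjustment made over the 31099 probe sets of the array. Of the 46 member probe sets, 0 were higher and 0 lower at an adjusted p under 0.05, as were 0.0% of all probe sets, and the smallest adjusted p of a member was 0.747. At an unadjusted p under 0.05 limma gave 0 members higher and 0 lower, while 1.84% of all probe sets were higher and 2.68% lower. Higher in all 3 pairs were 3 of the 46, or 6.52%, against 6.92% of all probe sets, and lower in all 3 was 1 of 46, or 2.17%, against 9.49%. With each array centred on its median these counts were 10 higher (21.7%) and 3 lower (6.52%), against 14.9% and 10.2% of all probe sets, since a shift of an array turns identical values into differences. The control and gabazine groups overlapped in every member, and 0.386% of all probe sets had groups that did not. Identical values in at least 1 pair were held by 29 of the 46 members, or 63.0%, against 47.4% of all probe sets. For 23 of the 28 genes the 95% interval of the mean log2 ratio in limma stayed within 1 in size, so the exceptions are Gabra3, Gabra4, Gabrg1, Gad2 and Slc6a13. With 3 pairs, the smallest p of an exact sign-flip test is 0.25.

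**Figure D2:**
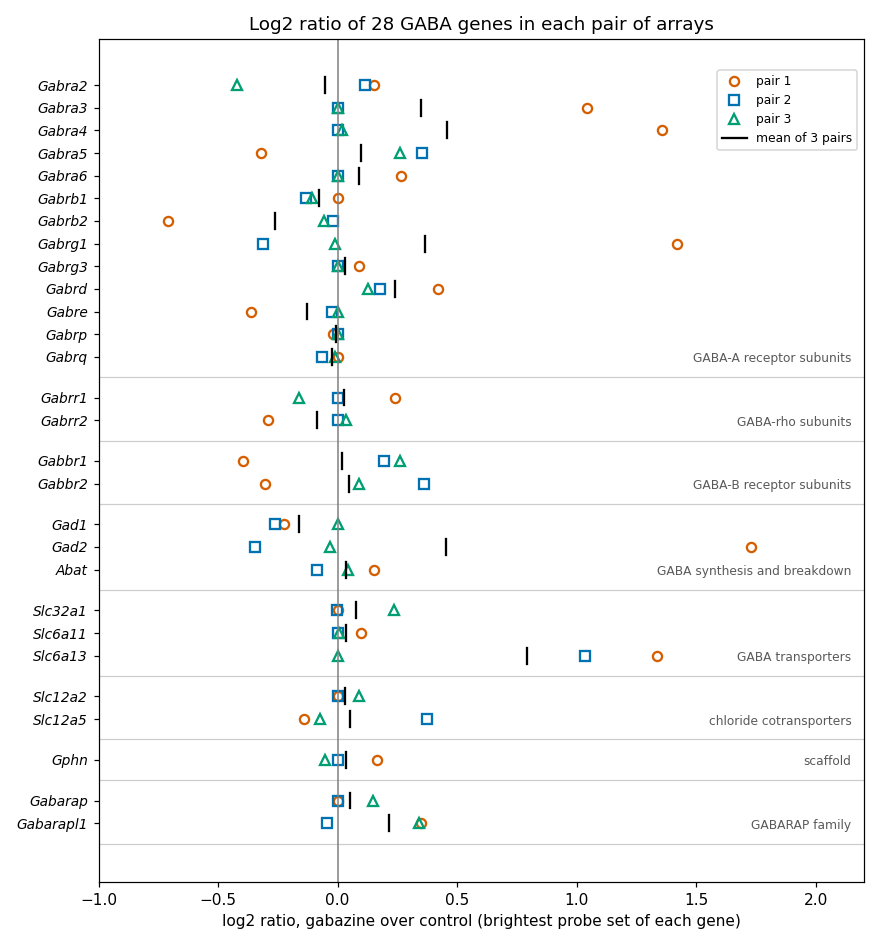
Log2 ratio of gabazine over control (horizontal axis) on the brightest probe set of each of 28 GABA genes (vertical axis), grouped by role, with 1 symbol per pair and a bar at the mean of 3 pairs. Most symbols lie near 0, and the symbols beyond 1 are those of pair 1 for Gabra3, Gabra4, Gabrg1, Gad2 and Slc6a13 and that of pair 2 for Slc6a13.

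Among the GABA-A subunits, 13 genes were measured and their mean log2 ratios ran from -0.26 to 0.46. Gabrd read 9.64, 8.61 and 9.79 in the control arrays of pairs 1, 2 and 3 and 10.05, 8.79 and 9.92 in the gabazine arrays. Every gabazine value stood above that of its own pair, while the groups overlapped, and the mean log2 ratio was 0.24 (standard error 0.09; 95% interval -0.01 to 0.50; adjusted p = 0.747). Its other probe sets had 0.14 and -0.05. Gabrb2 read 11.93, 10.74 and 11.94 in control and 11.22, 10.72 and 11.89 after gabazine. The difference lay mostly in pair 1, with log2 ratios of -0.71, -0.02 and -0.06 and a mean of -0.26 (standard error 0.22; adjusted p = 0.747), and its dimmer probe set had 0.84, -0.23 and 0.00.

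The alpha subunits decide where a receptor sits and how it responds to benzodiazepines. Gabra5 read 12.69, 12.03 and 13.14 in control and 12.37, 12.38 and 13.40 after gabazine. It was lower in pair 1 and higher in the other pairs, and its mean log2 ratio was 0.10 (standard error 0.21). Gabra2, a synaptic alpha subunit, had 0.15, 0.11 and -0.42 in pairs 1, 2 and 3, with a mean of -0.05 (standard error 0.18). Gabra4, the partner of the delta subunit in dentate granule cells, read 7.54, 6.61 and 7.24 in control and 8.89, 6.61 and 7.26 after gabazine, so that pair 1 held nearly the whole of its mean of 0.46 (standard error 0.45). Gabra3 was alike, with 5.92 and 6.96 in pair 1 and identical values in pairs 2 and 3, and Gabra6 had a mean of 0.09 (standard error 0.09).

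Of the remaining subunits, Gabrb1 had the tightest values among the bright ones. It read 12.97, 12.38 and 13.12 in control and 12.97, 12.24 and 13.01 after gabazine, which gives a mean log2 ratio of -0.08 (standard error 0.04; 95% interval -0.22 to 0.06). Gabrg1, a gamma subunit known from glia and some limbic neurons, read 8.25, 8.50 and 8.67 in control and 9.67, 8.19 and 8.66 after gabazine. Its log2 ratio of 1.42 in pair 1 stood against -0.31 and -0.01 in the other pairs. Gabrg3, Gabre, Gabrp and Gabrq had means between -0.13 and 0.03, and 1 probe set of Gabrp held identical values in all 3 pairs. Gabrr1 and Gabrr2 had 0.03 (standard error 0.12) and -0.09 (standard error 0.10).

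Many GABA-A subunit genes stand in clusters, and the log2 ratios of the neighbours given here lay further apart in pair 1 than in the other pairs. Ratios over the whole array also spread more in pair 1, with an SD of 0.475 against 0.247 and 0.230. Genes that are not neighbours were not compared, so this is not a trait of clusters. In the RefSeq gene order of the GRCr8 assembly, Gabrb1 and Gabra4 are direct neighbours on chromosome 14, as are Gabra2 and Gabrg1, with 1 protein-coding gene between these 2 duos. In pair 1 their log2 ratios were 0.00 for Gabrb1, 1.36 for Gabra4, 0.15 for Gabra2 and 1.42 for Gabrg1. On chromosome 10 the neighbours Gabra6 and Gabrb2 had 0.27 and -0.71, and on chromosome 1 Gabrg3 and Gabra5 had 0.09 and -0.32. On chromosome X, where Gabre, Gabra3 and Gabrq are each separated by 1 protein-coding gene, the values were -0.36, 1.04 and 0.00. In pairs 2 and 3 Gabra6 and Gabrb2 had 0.00 and -0.02, then 0.00 and -0.06, and no gene on chromosome X was beyond -0.06. Gabrb1 and Gabra4 had -0.13 and 0.00, then -0.11 and 0.02, while Gabrg3 at 0.00 stood beside Gabra5 at 0.35 and 0.26, and Gabra2 and Gabrg1 had 0.11 and -0.31, then -0.42 and -0.01.

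The GABA-B receptor couples to potassium channels and calcium channels and needs both of its subunits at the cell surface. Gabbr1, the subunit that binds GABA, read 13.05, 12.01 and 13.10 in control and 12.65, 12.20 and 13.37 after gabazine on its brightest probe set. Pair 1 was lower and pairs 2 and 3 were higher, with a mean log2 ratio of 0.02 (standard error 0.21). Gabbr2, the subunit that activates the G protein, read 13.15, 11.86 and 13.11 in control and 12.85, 12.22 and 13.20 after gabazine. Its signs by pair were those of Gabbr1, and its mean was 0.05 (standard error 0.19; 95% interval -0.47 to 0.57).

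Gabbr1 is measured by 5 probe sets, and they did not move alike. Of these, 3 carry the suffix that Affymetrix gives to a probe set shared by several transcripts of 1 gene. Those 3 had log2 ratios of 2.38, 1.35 and 0.00 in pair 1, while the brightest had -0.39. The highest of them read 8.73 in control and 11.11 after gabazine in pair 1, then 8.66 and 8.46 in pair 2 and 8.14 in both arrays of pair 3. The probe set with 1.35 in pair 1 was also higher in pairs 2 and 3, at 0.21 and 0.34, with a mean of 0.64 (standard error 0.36; adjusted p = 0.747). Which transcript each of them reads was not determined.

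For GABA synthesis, the bright probe set of Gad1 was close to its control value in every pair. It read 13.35, 12.57 and 13.46 in control and 13.13, 12.31 and 13.46 after gabazine, so that pairs 1 and 2 were lower by similar amounts and pair 3 was level. The mean log2 ratio was -0.16 (standard error 0.08; 95% interval -0.40 to 0.08; adjusted p = 0.747). The dim probe set of Gad1 read 6.59, 5.98 and 6.36 in control and 9.49, 5.98 and 6.68 after gabazine, and its log2 ratio of 2.90 in pair 1 was the highest of all member values. Gad2, the decarboxylase of nerve terminals, read 6.73, 7.23 and 7.28 in control and 8.46, 6.88 and 7.25 after gabazine on its only probe set. It was higher in pair 1 and lower in pairs 2 and 3, and the mean of 0.45 (standard error 0.65) turned to -0.19 without pair 1. Abat, the transaminase that breaks GABA down, had a mean log2 ratio of 0.04 (standard error 0.07) on the brightest of 3 probe sets, and the dimmer ones gave -0.05 and 0.01.

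The promoter of Gad1 is shown because it was the only one of 26 member promoters with a match to the binding motif of the Egr zinc finger factors, which neuronal activity is known to induce. The motif was searched as GCGTGGGCG or GCGGGGGCG on both strands, from 250 bases before to 50 after the RefSeq gene start, and 3.2% of 33469 promoters of this length hold it. The stretch lies at chr3:75777202-75777501 of GRCr8 on the plus strand, and the capitals mark the motif, which here stands on the opposite strand and begins at position -92 from the gene start.
Gad1: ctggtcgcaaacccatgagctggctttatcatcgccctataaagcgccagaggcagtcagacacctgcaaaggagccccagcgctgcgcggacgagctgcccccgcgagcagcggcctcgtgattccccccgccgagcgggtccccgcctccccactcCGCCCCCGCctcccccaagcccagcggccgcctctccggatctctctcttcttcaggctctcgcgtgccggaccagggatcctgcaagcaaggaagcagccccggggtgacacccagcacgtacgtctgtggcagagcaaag
The full cyclic AMP response element TGACGTCA was in 0 of the 26 and in 1.83% of all promoters, and the AP-1 site TGACTCA was in 0 and in 4.63%. The half-site TGACG, searched on both strands, which every full element also holds, was in 4 of the 26 and in 21.2% of all promoters. It is shown in capitals for Slc32a1 and Gabbr2, the members of the 4 that are expressed in hippocampal neurons and have a probe set. The first of the 2 matches in Slc32a1 lies in chr3:167687047-167687087 on the plus strand, and that in Gabbr2 in chr5:66083697-66083737 on the minus strand, where the half-site reads on the opposite strand.
Slc32a1: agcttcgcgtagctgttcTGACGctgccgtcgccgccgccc
Gabbr2: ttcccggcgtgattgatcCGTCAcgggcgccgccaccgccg
A match describes the letters in this window, and binding was not measured on these arrays.

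The vesicular transporter Slc32a1 (VGAT) fills synaptic vesicles with GABA and glycine and marks inhibitory terminals. It read 9.96, 9.01 and 9.18 in control and 9.96, 9.01 and 9.42 after gabazine. Pairs 1 and 2 were level and pair 3 was higher, with a mean log2 ratio of 0.08 (standard error 0.08; 95% interval -0.15 to 0.31). Slc6a11 (GAT3), the astrocytic GABA transporter, read 6.14, 4.97 and 6.23 in control and lay below the array median throughout. Its mean log2 ratio was 0.03 (standard error 0.03).

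Slc6a13, given in full after its values were seen, had the widest spread between control arrays and the highest mean log2 ratio on a brightest probe set. It read 9.47, 6.41 and 7.08 in control and 10.81, 7.45 and 7.08 after gabazine. The control of pair 1 was brighter than 2 of the 3 gabazine arrays. The log2 ratios were 1.34, 1.04 and 0.00, with a mean of 0.79 (standard error 0.40; 95% interval -0.29 to 1.87; adjusted p = 0.747). In pair 2 it was the member probe set above 1, of 46, where 0.685% of all probe sets stood above 1, and in pair 3 there was none, where 0.318% did.

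Meningeal cells and choroid plexus can stay attached to a slice, and their markers are given beside it. Of 14 listed meningeal and fibroblast genes 13 were measured, and their mean level was 10.85, 8.57 and 9.84 in control and 11.21, 9.08 and 9.55 after gabazine. As in Slc6a13, pairs 1 and 2 were higher after gabazine, by 0.36 and 0.52, while pair 3 was lower by a log2 difference of -0.30. The member of that list with the highest mean, the prostaglandin synthase Ptgds, had 0.10, 3.20 and -0.59, and the lowest, decorin (Dcn), had 0.16, -1.24 and -0.79. Of 11 choroid plexus genes 9 were measured, with mean differences of 0.86, 0.15 and 0.04 in pairs 1, 2 and 3. The medians were 0.15, 0.08 and 0.08, as the mean of pair 1 rests on Ttr at 4.59 and the water channel Aqp1 at 1.56, while Kl, Kcne2 and Prlr were at 0.00 there. The lowest mean of the list was 0.01 for the lysophospholipase Enpp2. Ttr, the thyroid hormone carrier of the choroid plexus, read 8.44, 10.79 and 8.36 in control and 13.03, 10.93 and 8.43 after gabazine. The part of these tissues in the value of Slc6a13 was not tested.

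**Figure D3:**
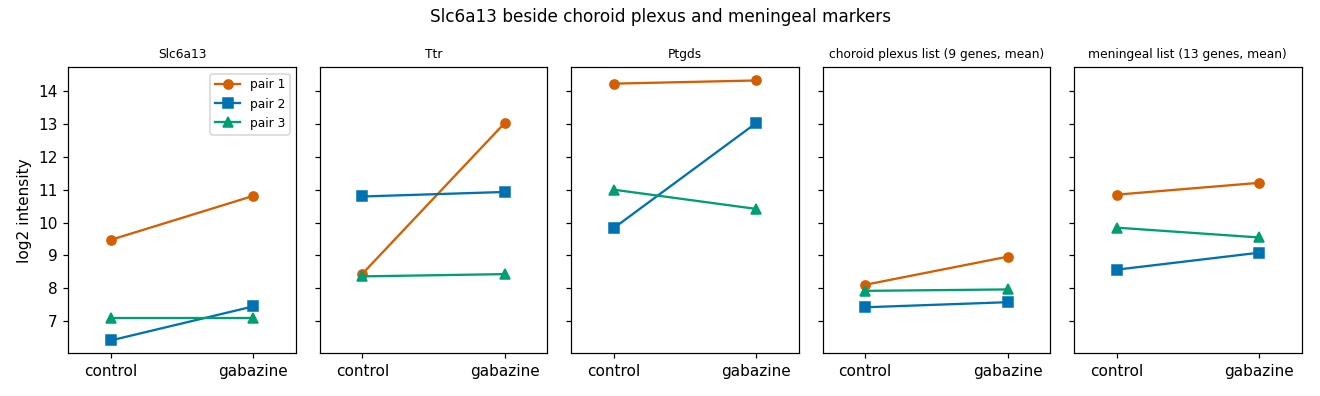
Log2 intensity (vertical axis) in control and gabazine arrays (horizontal axis), with 1 line per pair, for Slc6a13, for the choroid plexus gene Ttr and the meningeal gene Ptgds, and for the mean of the choroid plexus and meningeal marker lists. The line of Slc6a13 is level at 7.08 in pair 3 and climbs from 9.47 to 10.81 in pair 1. Array medians are not subtracted.

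The 2 chloride cotransporters had mean log2 ratios smaller than 0.2 in size, while Slc12a5 differed between the pairs. Slc12a2 read 13.30, 12.47 and 13.31 in control, with identical values after gabazine in pairs 1 and 2 and 13.40 in pair 3. Its mean log2 ratio was 0.03 (standard error 0.03; 95% interval -0.09 to 0.15). That spread includes 2 identical pairs, so it is not a measure of precision. Slc12a5 read 12.99, 11.28 and 12.45 in control and 12.85, 11.65 and 12.37 after gabazine. It was higher in pair 2, by 0.38, and lower in pairs 1 and 3, at -0.14 and -0.08. Its mean was 0.05 (standard error 0.16; 95% interval -0.39 to 0.50; limma adjusted p = 0.895).

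Gphn, gephyrin, holds GABA-A and glycine receptors at the inhibitory synapse. It read 11.31, 11.19 and 11.88 in control and 11.47, 11.19 and 11.82 after gabazine, with a mean log2 ratio of 0.04 (standard error 0.06). Gabarap, which binds gamma subunits and takes part in receptor traffic and autophagy, had 0.05 (standard error 0.05) on a bright probe set and -0.06 on another. Gabarapl1, its relative with a main role in autophagy, read 12.86, 11.69 and 11.99 in control and 13.21, 11.65 and 12.33 after gabazine. Pairs 1 and 3 were higher by like amounts and pair 2 was level, and the mean was 0.22 (standard error 0.13; 95% interval -0.14 to 0.57).

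Pair 1 stood apart from the others in the GABA genes. In that pair 10 of the 46 member probe sets, or 21.7%, had a log2 ratio above 1, where 4.07% of all probe sets did. These 10 belong to Gabra3, Gabra4, Gabrg1, Gabbr1, Gabbr2, Gad1, Gad2, Slc6a13 and Gabarapl1, a set picked by these values, and ran from 1.04 to 2.90 with a median of 1.39. The same 10 had a median of -0.05 in pair 2 and 0.00 in pair 3. In pair 2, 8 of the 10 were at or below 0, and in pair 3, 8 of the 10 lay within 0.05 of 0. The other 36 member probe sets ran from -0.71 to 0.84 in pair 1.

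The high values of pair 1 were also counted by level, with no test. Of the 25 member probe sets below the array median in its control, 7 stood above 1, where 5.72% of all such probe sets did, and of the 21 at or above the median it was 3, where 2.41% did. The wider ratios of pair 1 over the whole array, and the difference between 5′ and 3′ control probe sets in that pair, move with these values. Their part was not tested.

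Probe sets of the same gene went apart in that pair. Of the 13 genes with several probe sets, Gad1 and Gabbr1 had probe sets more than 2 apart in log2 ratio, which is 2 of 13, against 4.51% of 4526 genes. Gad1 had 2.90 on its dim probe set and -0.22 on its bright one, a gap of 3.12, which was 0.26 in pair 2 and 0.32 in pair 3. Gabbr1 had a gap of 2.78 in pair 1 and of 0.41 and 0.34 in the others. Gabbr2 read 6.44 in control and 7.89 after gabazine on its dim probe set, and 13.15 and 12.85 on its bright one, a gap of 1.75. Gabrb2, with a gap of 1.55, and Gabarapl1, with 0.92, also had the higher ratio on the dimmer probe set. Over the 13 genes, the dimmest probe set had the higher ratio in pair 1 in 8 and the brightest in 5. Among the latter, Gabrd had 0.42 on its brightest and -0.22 on its dimmest, Gabra6 had 0.27 and -0.31, and Gabrr1 had 0.24 and -0.11. The gaps of Gabarap and Gabrp were 0.02 or less in pair 1.

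**Figure D4:**
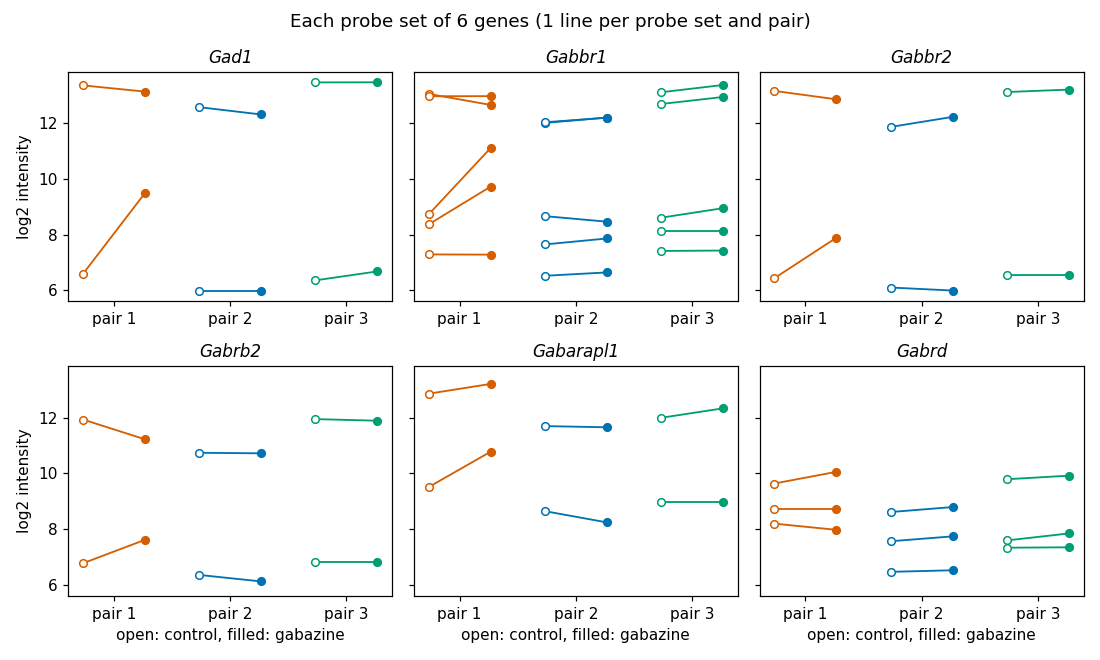
Log2 intensity (vertical axis) of every probe set of Gad1, Gabbr1, Gabbr2, Gabrb2, Gabarapl1 and Gabrd, with a line from control (open) to gabazine (filled) in each pair (horizontal axis). In pair 1 the dim lines of Gad1 and Gabbr2 climb from 6.59 to 9.49 and from 6.44 to 7.89 while their bright lines decline. In pairs 2 and 3 the log2 ratios of these dim probe sets lie between -0.11 and 0.32.

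The partners of these genes showed no call either, but no probe set of the array did, so this does not set them apart. Of 29 listed genes that anchor, carry or neighbour receptors at inhibitory synapses, 25 were measured, and 0 passed the adjusted threshold. In all 3 pairs 4 were higher and 1 lower. Over all 14218 genes, 1107 were higher and 1537 lower in all 3 pairs, the background for this list and the next ones. The median log2 ratio of the 25 was 0.01. The highest mean was that of dystrophin (Dmd), a scaffold of some inhibitory synapses, with 0.94, -0.02 and 0.40 in pairs 1, 2 and 3. The lowest was that of Shisa7, a GABA-A receptor auxiliary protein, with -1.06, 0.29 and -0.02.

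Of 15 genes of GABA and glutamine metabolism or amino acid uptake, 12 were measured, with 0 past the threshold and a median of 0.02. The glutamine carrier Slc38a3 of astrocytes had the highest mean at 0.21 (standard error 0.09) and was higher in all 3 pairs, and the neuronal carrier Slc38a1 had the lowest at -0.12 (standard error 0.11). Of 23 genes of chloride and bicarbonate balance, 18 were measured, with 0 past the threshold, 3 higher and 2 lower in all 3 pairs, and a median of 0.00. Wnk2, of the kinase family that controls the chloride cotransporters, read 11.18, 10.64 and 11.51 in control and 10.77, 10.45 and 11.15 after gabazine. Each gabazine value was below that of its pair, with a mean of -0.32 (standard error 0.07; adjusted p = 0.747). The chloride transporter Clcn7 of lysosomes had the highest mean, 0.49 (standard error 0.47), from 1.43 in pair 1.

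Of 17 genes of GABA-B signalling, 14 were measured, with 0 past the threshold and a median of 0.07, and 0 were higher and 0 lower in all 3 pairs. The G protein subunit Gnai1 had the highest mean with 1.38, -0.16 and 0.22, and Gnb5, the partner of Rgs proteins, the lowest with -0.42, 0.00 and -0.17. Markers of GABAergic interneurons, of which 15 of 20 were measured, had a median of 0.00 and mean level differences of 0.08, 0.02 and 0.00 in pairs 1, 2 and 3. Among them the serotonin receptor Htr3a had the highest mean with 1.11, 0.01 and -0.29, and the peptide Vip the lowest with 0.02, -0.41 and -0.14. Of 11 measured markers of excitatory neurons 0 passed the threshold, and their median was 0.22 with 0.00, 0.28 and 0.13 in the pairs. The vesicular glutamate transporter Slc17a7 had the highest mean of these at 0.35 (standard error 0.19), and the dentate granule cell factor Prox1 the lowest at -0.18 (standard error 0.35).

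Markers of the other cells of a slice had 0 calls as well, like the whole array. The lists held 10 measured genes for astrocytes, 11 for oligodendrocytes, 12 for microglia and 11 for vascular cells. The median log2 ratios were 0.08, 0.16, 0.14 and -0.09 in that order. The highest and lowest means were 0.90 for the connexin Gjb6 and -0.26 for the water channel Aqp4 among astrocyte genes, and 0.36 for Mog and -0.10 for Mobp among the myelin genes. They were 0.26 for Cx3cr1 and -0.40 for Ptprc among microglial genes, and 0.63 for the endothelial receptor Kdr and -0.30 for Abcc9 of pericytes among vascular genes.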

How the data were processed

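RNA of 3 control and 3 gabazine-treated samples of rat hippocampal cultures was hybridised to Affymetrix RAT2302 arrays. The deposited values are log2 intensities that the authors obtained by Robust Multi-array Average (RMA), as the methods and the submitters' processing notes state; for its version, and for whether all pairs were normalized together, nothing is given in the sources used here. Values run from 3.03 to 15.41 and were used with no further scaling, and 0 columns were left out. By the array annotation 20832 probe sets have 1 gene symbol, 436 have more than 1 and 9831 have no name.

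The members and lists were chosen with earlier results of these data known. The brightest probe set of a gene is that with the highest mean over 6 arrays. The gabazine effect was tested with limma 3.58.1 (R 4.3.3) across all probe sets blocked on the pair (2 residual degrees of freedom), then eBayes and the Benjamini-Hochberg adjustment, at a threshold of 0.05. Standard errors are the SD of 3 log2 ratios divided by the square root of their number, and intervals are limma's. The pairing comes from the series' design, in which a replica shares its 2 littermates, and once group means were subtracted, the arrays of a pair correlated at 0.794, 0.664 and 0.853. Full values were given for members that moved one way in all 3 pairs by a mean of at least 0.2, for members at an unadjusted p under 0.05, and for Gad1, Gad2, Slc32a1, Gabbr1, Gabbr2, Slc12a2 and Slc12a5; others so described were chosen after their values were seen. Of each partner or marker list the highest and lowest mean are named. Alternatives were no pairing, each pair left out, 3 scalings, the 40% dimmest or the tied probe sets left out, another variance model and the mean of a gene's probe sets. Promoters are those of RefSeq for GRCr8. The number of arrays limits the precision.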

Additional observations from a re-analysis of the deposited data

How the results depend on the processing

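Under every alternative run (no replicate block, each pair left out, 3 scalings, both filters, another variance model) 0 member probe sets passed the adjusted threshold, so the fit without the pairing changed no call. The count of members higher in all pairs was 10 (21.7%) after median centring, 7 (15.2%) after quantile normalization and 10 (21.7%) after cyclic loess, against 3 (6.52%). Over all probe sets the shares were 14.9%, 10.8% and 17.0%, against 6.92%. That of members lower was 3 (6.52%), 4 (8.7%) and 4 (8.7%), against 1 (2.17%), with shares over all probe sets of 10.2%, 16.8% and 12.1%, against 9.49%. With a pair left out, 5 to 11 were higher and 3 to 6 lower in both remaining pairs, against 13.5% to 19.6% and 14.6% to 21.5% of all probe sets. The median of the member genes was 0.037, and 0.000 to 0.044 with a pair left out, with 0.000 without pair 1. Of 281 values of single genes under the alternatives 21 changed sign. With 1 pair left out the log2 ratio ran from -0.152 to 0.133 for Gabra2, -0.030 to 0.306 for Gabra5, -0.161 to 0.704 for Gabrg1, -0.082 to 0.119 for Gabrr1, -0.146 to 0.017 for Gabrr2, -0.100 to 0.227 for Gabbr1, -0.107 to 0.224 for Gabbr2, -0.187 to 0.849 for Gad2, -0.022 to 0.099 for Abat, -0.001 to 0.118 for Slc32a1, -0.107 to 0.150 for Slc12a5 and -0.026 to 0.082 for Gphn. The low ends of Gabrg1 and Gad2 are those without pair 1. Quantile normalization gave -0.010 for Gabrr1 and -0.008 for Gabbr1. The mean of all probe sets gave -0.044 for Gabra6, -0.007 for Gabrr1, 0.003 for Gabrr2, -0.002 for Abat, -0.004 for Gabarap and 0.456 for Gad1, whose dim probe set enters there. With no change of sign, it gave -0.03 for Gabrb2 and 0.111 for Gabrd, against -0.263 and 0.242 in the main fit. Gabbr1 had 0.313 and Gabbr2 0.248, against 0.02 and 0.049. The causes of the sign changes and of these shifts were not tested further. With no detection measure, the signal over background of the dim members is not known here.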
